A study of Homo sapiens with 6 samples.

Results

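The genes described here were 10 upstream members of the Hippo pathway, namely the kinases *STK3*, *STK4*, *LATS1* and *LATS2*, their partners *SAV1*, *MOB1A* and *MOB1B*, and the scaffolds *NF2*, *WWC1* and *AMOT*. They were chosen by name, as the kinase cascade and its scaffolds, and not ranked by a measured value. Earlier results of these data were known when they were chosen. All 10 were found among the 58735 Ensembl genes of each library. Of these, 9 were among the 13718 tested genes that had a mean of at least 1 FPKM (a read measure relative to exon length and to the size of the library) over the 6 libraries. *LATS2* lay below that limit and was not tested in this way.

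The libraries were made from SK-N-AS, an established line of human neuroblastoma cells. RNA was taken 72 h after transfection per the labels, while a shorter time stands in the methods. Cells received a small interfering RNA against Prp19 (siPrp19), a pre-mRNA splicing factor encoded by *PRPF19*, or a negative control siRNA (NC). The cells were a transiently transfected pool, and both groups came from the same line, with no other treatment named. The comparison asks which transcripts change when Prp19 is lost.

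Each value column carried the name of a library, which was NCa, NCb or NCc, or siPrp19a, siPrp19b or siPrp19c. For 2 libraries the column name and the sample record stated opposite groups. The column NCb was recorded under an siPrp19 sample and the column siPrp19b under an NC sample. The columns NCc and siPrp19a were recorded under another replicate of their own group. The libraries were therefore compared in 3 ways. The main comparison took all 6 libraries by column name, the second took the 4 libraries whose column and record gave the same group (NCa and NCc against siPrp19a and siPrp19c), and the last took all 6 by record. The target *PRPF19* was at 83.0, 83.1 and 93.0 FPKM in NCa, NCb and NCc, and at 19.6, 19.1 and 18.5 FPKM in siPrp19a, siPrp19b and siPrp19c, so its level followed the column names in all 6 libraries.

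Between 14887132 and 19977811 reads per library were recovered from the FPKM values. Mitochondrial genes took 8.29% of the reads in siPrp19a and 5.15% to 5.49% in the 5 others. By a chi-square statistic per degree of freedom on reads, which is near 1 for sampling noise alone, NCa and NCb (1.72) and siPrp19b and siPrp19c (2.59) were much closer to each other than the 13 other pairs (18.1 to 46.7). No pair agreed within sampling noise, and the libraries were kept apart. Labels do not say whether the libraries came from separate cultures, while the methods of the study call them biological replicates, so the p-values measure the spread between these libraries. The neuroblastoma identity of the cells was checked with 8 adrenergic markers. *HAND2*, a transcription factor of the adrenergic state, was at 117 to 170 FPKM, whereas *TH*, which encodes tyrosine hydroxylase, was below 1 FPKM in every library. The summed level of the 8 markers was 258 to 285 FPKM in NC and 216 to 230 FPKM in siPrp19, without overlap, and no marker was at 0. Most of each sum came from *HAND2*. None of the 8 that was tested was called by limma or by voom on recovered reads. An unadjusted p under 0.05 was found for *CHGA*, *GATA3*, *DBH* and *HAND2* by limma, and for the same genes without *DBH* by voom. The summed level of 6 mesenchymal markers was 208 to 235 FPKM in NC and 167 to 194 FPKM in siPrp19, also without overlap. Of these, 0 of the 5 that were tested passed by limma or by voom on recovered reads, against 7.94% and 9.97% of all tested genes. At an unadjusted p under 0.05 there were 2 and 1, against 23.6% and 26%. The part of these markers in the results below was not tested, and in bulk RNA fewer cells of a kind and less RNA per cell cannot be told apart.

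The Hippo pathway is a kinase cascade that restrains growth. The kinases MST1 and MST2, encoded by *STK4* and *STK3*, act with the adaptor SAV1 to phosphorylate LATS1 and LATS2 and their coactivators MOB1A and MOB1B, and LATS kinases in turn phosphorylate YAP and TAZ, which are then held in the cytoplasm or degraded. Merlin (*NF2*), KIBRA (*WWC1*) and angiomotin (*AMOT*) bring the kinases to membranes and junctions, and angiomotin can also bind YAP directly. Much of this control acts on phosphorylation, which RNA-seq does not measure.

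All 10 genes were detected in every library, and their levels spanned a wide range. By the mean level in NC, *MOB1A* was the highest at 22.5 ± 2.08 FPKM (SD, n = 3), followed by *STK4*, *SAV1*, *NF2*, *WWC1*, *AMOT*, *MOB1B*, *LATS1* and *STK3*, and *LATS2* was the lowest at 0.750 ± 0.153 FPKM (SD, n = 3). In NC the ranges overlapped between the neighbours *STK4* and *SAV1*, *NF2* and *WWC1*, and *AMOT* and *MOB1B*, and the ranges of the other neighbours in this order did not overlap. The order rests on the merged exon length of all transcripts by which the FPKM were divided, and this is 12597 bases for *STK3* against 2826 bases for its main transcript. Relative to the main transcript, the same reads gave a mean in NC of 7.80 for *STK3*, between *WWC1* (8.07) and *NF2* (7.27), while *MOB1A* (29.7) stayed the highest and *LATS1* (3.54) and *LATS2* (0.759) were the lowest. This second order was added after seeing the data, and levels between genes are therefore given only as a description.

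**Figure D1:**
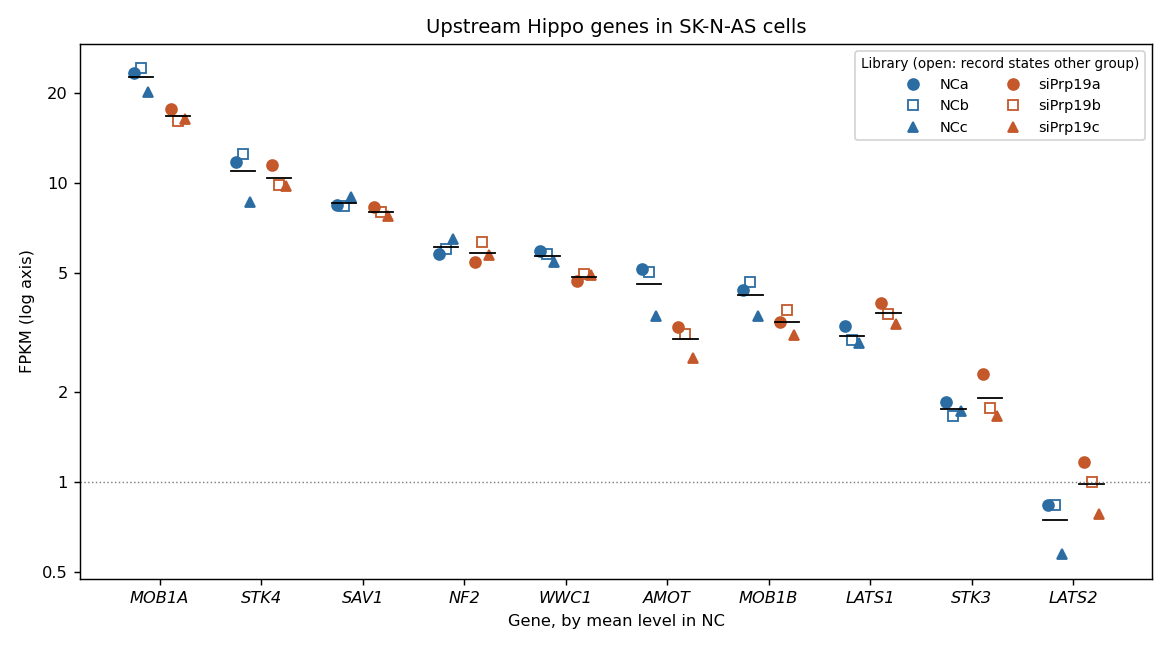
FPKM (log axis) of the 10 genes in each of the 6 libraries, ordered by the mean level in NC, with blue points for NC and orange points for siPrp19, open squares for the 2 libraries whose record states the other group, a black bar for each group mean and a dotted line at 1 FPKM. The points of *MOB1A*, *WWC1* and *AMOT* lie lower in siPrp19 without overlap, those of *LATS1* lie higher, and *LATS2* sits around the dotted line.

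After knockdown by column name, *MOB1A* was the 1 member that passed the test, and it was lower (1 of 9 tested members, against 7.94% of all tested genes called and 5.37% called lower). No member was called higher, where 2.57% of all tested genes were. On log2(FPKM + 1), which understates changes of weakly expressed genes, all 9 tested members had an absolute log2 fold change below 0.5. So did 12849 of the 13718 tested genes. Over the alternative fits that kept all 6 libraries, *AMOT* was at -0.58 to -0.37. The median log2 fold change was -0.09 over the 9 members and -0.02 over all tested genes. An unadjusted p under 0.05 was found for *MOB1A*, *AMOT* and *WWC1*, or 3 of 9 members, against 23.6% of all tested genes.

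The voom values below come from the limma model for read counts, run on the reads recovered from FPKM. *STK4* (ENSG00000101109, chr20:44966474-45079959, plus strand, GRCh38) encodes MST1, one of the kinases at the top of the cascade. It was at 11.8, 12.5 and 8.66 FPKM in NCa, NCb and NCc, and at 11.5, 9.86 and 9.75 FPKM in siPrp19a, siPrp19b and siPrp19c. The groups overlapped, and NCc lay below all 3 siPrp19 libraries. The log2 fold change was -0.06, with a 95% interval from -0.39 to 0.26 and an adjusted p of 0.829 by limma, and it was 0.01 with voom on the recovered reads.

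*STK3* (ENSG00000104375) encodes MST2, the paralog of MST1. It was at 1.85, 1.67 and 1.73 FPKM in the NC libraries and at 2.31, 1.77 and 1.66 FPKM in the siPrp19 libraries, from 310 to 459 reads per library. The value in siPrp19a was the highest of the 6 and that in siPrp19c the lowest. The log2 fold change was 0.08 (interval -0.19 to 0.34, adjusted p = 0.734 by limma), and it was -0.02 without siPrp19a.

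*SAV1* (ENSG00000151748, chr14:50632058-50668331, minus strand) encodes the adaptor that binds MST1 and MST2. Its levels were 8.46, 8.35 and 8.96 FPKM in NC and 8.30, 7.996 and 7.76 FPKM in siPrp19. In FPKM, every siPrp19 library was below every NC library, by a small margin. The log2 fold change was -0.09 (interval -0.24 to 0.06, adjusted p = 0.458 by limma), and it was -0.02 with voom on the recovered reads. Of its exon bases, 14.9% lie under *ATL1* on the opposite strand, and whether reads were counted by strand is not given in the sources used here, so reads in these bases cannot be told apart. Of the 50-base windows of its main transcript, 8.53% occurred in another gene, the highest share among the members.

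The LATS kinases phosphorylate YAP and TAZ. *LATS1* (ENSG00000131023, chr6:149658153-149718256, minus strand) was at 3.32, 3.00 and 2.91 FPKM in NC and at 3.98, 3.66 and 3.37 FPKM in siPrp19. Every siPrp19 library was above every NC library, with a difference of 19.2% between the group means. *LATS1* did not pass the test (log2 fold change 0.19, interval -0.01 to 0.39, adjusted p = 0.224 by limma).

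*LATS2* (ENSG00000150457, chr13:20973032-21061547, minus strand) encodes the second LATS kinase. It was at 0.838, 0.839 and 0.573 FPKM in NC, from 74, 69 and 55 reads, and at 1.17, 0.999 and 0.785 FPKM in siPrp19, from 103, 92 and 92 reads. The groups overlapped, since siPrp19c lay below NCa and NCb. In a fit without the limit on low values the log2 fold change on log2(FPKM + 1) was 0.18 (adjusted p = 0.672 by limma). With voom on the recovered reads, for genes with at least 60 reads in total, it was 0.47 (interval -0.01 to 0.95, adjusted p = 0.206). At these read numbers a difference of the size seen could not be told from the spread.

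The start site of *LATS2* is shown because it was the 1 member promoter that held both of the motifs searched. These were GGAATG, the core of TEAD sites, and CACGTG, the E-box bound by MYC and other factors, each on both strands, in the 250 bases before and 50 bases after RefSeq start sites (GRCh38.p14). A promoter was found for 9 of the 10 members, with 12 promoters in all. The stretch below is chr13:21061567-21061596 on the minus strand, and the capitals mark the E-box and then the TEAD motif.
LATS2: ggggtCACGTGacgcccgtGGAATGccaac
GGAATG was present in 1 of the 12 promoters, against 14.0% of 35116 RefSeq promoters. CACGTG was present in 2 of the 12, those of *LATS2* and *STK4*, against 7.26% of all promoters. These matches describe the letters of the reference and are not binding sites measured here.

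*MOB1A* (ENSG00000114978, chr2:74152528-74178898, minus strand) encodes a coactivator that LATS kinases need for full activity. It was at 23.3, 24.2 and 20.2 FPKM in NCa, NCb and NCc, from 2237 to 2371 reads. In siPrp19a, siPrp19b and siPrp19c it was at 17.7, 16.2 and 16.3 FPKM, from 1718 to 2208 reads. Every siPrp19 library was below every NC library, and the group means were 22.5 ± 2.08 and 16.7 ± 0.818 FPKM (SD, n = 3 each), a difference of -25.8%. *MOB1A* fell by 0.41 ± 0.09 (SE) on the log2 scale, with an interval from -0.61 to -0.21 and an adjusted p of 0.0342 by limma. In the 4 libraries with agreeing record and column, its log2 fold change was -0.33 (interval -0.66 to -0.01, adjusted p = 0.399). The call also depended on the close libraries, since without NCa, NCb, siPrp19b or siPrp19c the adjusted p by limma was 0.135, 0.128, 0.142 and 0.133.

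*MOB1B* (ENSG00000173542, chr4:70902326-71022449, plus strand) encodes the close paralog of MOB1A. Its levels were 4.40, 4.65 and 3.60 FPKM in NC and 3.43, 3.77 and 3.11 FPKM in siPrp19. The groups overlapped, because NCc lay below siPrp19b. The log2 fold change was -0.23 (interval -0.48 to 0.02, adjusted p = 0.239 by limma).

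The coding sequences of these paralogs are shown because a read that matched both genes would not tell them apart. The first 120 coding bases are given below from GENCODE 29 (GRCh38), with the 22 bases that differ between the genes in capitals. They lie on the minus strand at chr2:74178661-74178674 (exon 1) and chr2:74172647-74172752 (exon 2) for *MOB1A*, and on the plus strand at chr4:70902537-70902550 (exon 1) and chr4:70958874-70958979 (exon 2) for *MOB1B*.
MOB1A: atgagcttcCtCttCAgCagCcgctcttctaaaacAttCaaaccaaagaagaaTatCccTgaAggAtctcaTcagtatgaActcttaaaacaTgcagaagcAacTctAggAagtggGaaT
MOB1B: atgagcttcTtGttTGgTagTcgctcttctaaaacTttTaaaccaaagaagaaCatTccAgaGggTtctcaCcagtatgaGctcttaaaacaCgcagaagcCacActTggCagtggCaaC
Both coding sequences are 648 bases long and differ at 132 positions, which leaves 79.6% identity and no identical run longer than 17 bases. Of the 50-base windows of the main transcripts, 0.827% in *MOB1A* and 0.0868% in *MOB1B* occurred in another gene. Those of *MOB1B* were shared with *SUN3* alone and so did not occur in *MOB1A*. *MOB1B* was not among the genes that shared most windows with *MOB1A*. The pseudogenes *MOB1AP1* and *MOB1AP2* were listed at 0 in all 6 libraries.

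*NF2* (ENSG00000186575, chr22:29603556-29698598, plus strand) encodes merlin, a tumor suppressor that binds LATS kinases at the membrane. It was at 5.80, 6.03 and 6.49 FPKM in NC and at 5.46, 6.35 and 5.75 FPKM in siPrp19. The groups overlapped, and the second highest value was that of siPrp19b. The log2 fold change was -0.05 (interval -0.24 to 0.13, adjusted p = 0.729 by limma), and it was 0.01 with voom on the recovered reads.

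*WWC1* (ENSG00000113645, chr5:168291651-168472303, plus strand) encodes KIBRA, which joins merlin and the LATS kinases. Its levels were 5.91, 5.79 and 5.44 FPKM in NC and 4.72, 4.97 and 4.92 FPKM in siPrp19. All siPrp19 libraries were below all NC libraries, with means that differed by -14.8%. *WWC1* did not pass the test over all genes (log2 fold change -0.19, interval -0.35 to -0.04, adjusted p = 0.129 by limma).

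*AMOT* (ENSG00000126016, chrX:112774503-112840815, minus strand) encodes angiomotin and had the largest log2 fold change of the 9 tested members. It was at 5.17, 5.04 and 3.58 FPKM in NCa, NCb and NCc and at 3.30, 3.14 and 2.61 FPKM in siPrp19a, siPrp19b and siPrp19c. The groups did not overlap, but NCc stood close to the siPrp19 libraries and far from NCa and NCb. The group means were 4.60 ± 0.881 and 3.01 ± 0.360 FPKM (SD, n = 3 each), a difference of -34.4%. The log2 fold change was -0.47 ± 0.14 (SE), with an interval from -0.79 to -0.15 and an adjusted p of 0.0857 by limma, so *AMOT* missed the threshold. Without NCc it fell by 0.61, with an adjusted p of 0.0217 by limma. In the 4 libraries it was -0.43 (interval -0.89 to 0.03, adjusted p = 0.424).

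**Figure D2:**
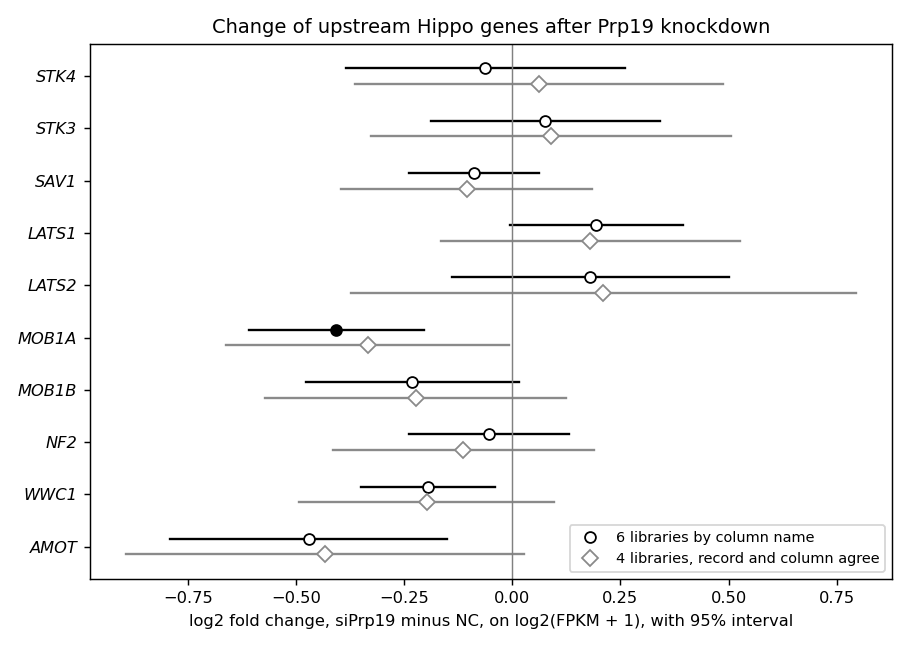
Log2 fold change, siPrp19 minus NC, on log2(FPKM + 1) with its 95% interval (horizontal line) for each gene, in the 6 libraries by column name (black circles) and in the 4 libraries whose record and column agree (grey diamonds). The symbol is filled where the adjusted p was under 0.05, which was the case for *MOB1A* in the 6 libraries, and *LATS2* is taken from the fit without a limit on low values.

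Counted in FPKM over all tested members by column name, 4 were lower in siPrp19 without overlap (*MOB1A*, *AMOT*, *WWC1* and *SAV1*). In this way 18.1% of all tested genes were lower. *LATS1* was the 1 member higher without overlap, where 13.2% of all tested genes were. By voom on the recovered reads of the 6 libraries, *MOB1A* alone was called, 1 of 9 members, against 9.97% of all tested genes. An unadjusted p under 0.05 by voom was found for *MOB1A*, *AMOT* and *LATS1*, or 3 of 9, against 26%. In the 4 libraries, 0 of the 9 tested members passed by limma, against 0.0146% of all tested genes, and *MOB1A* alone had an unadjusted p under 0.05, against 12.3% of all tested genes. By voom on the recovered reads in the same 4 libraries, 0 of the 9 passed, against 1.92% of all tested genes, and *AMOT* alone had an unadjusted p under 0.05, against 14.5%. By record, 0 of 9 members passed by limma or by voom, no member had an unadjusted p under 0.05, and 0% of all tested genes were called by limma, with 191 at an unadjusted p under 0.05. The target *PRPF19*, whose level followed the column names, was not called by record either (log2 fold change -0.74 by limma). The counts by record therefore cannot tell whether members changed with the knockdown. With the replicate number as a block, both *MOB1A* (adjusted p = 0.0452 by limma) and *AMOT* (adjusted p = 0.0358 by limma) were called lower, against 6.76% of all tested genes called.

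**Figure D3:**
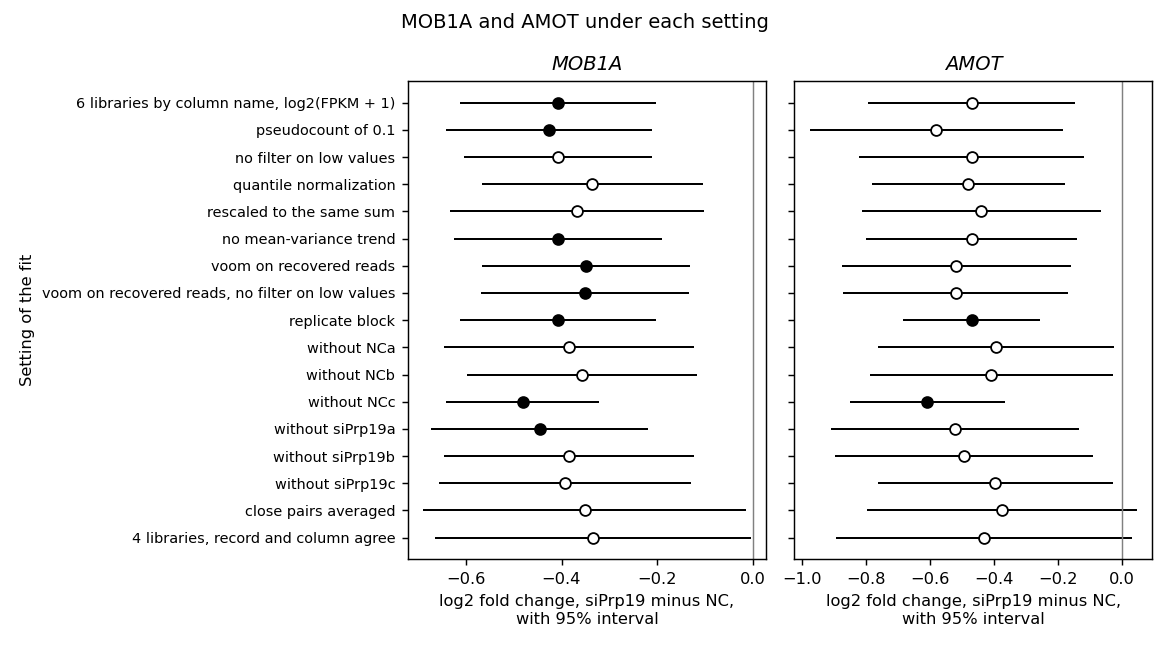
Log2 fold change, siPrp19 minus NC, with its 95% interval (horizontal line) for *MOB1A* and *AMOT* under each setting of the fit to the 6 libraries by column name and in the 4 libraries, filled where the adjusted p was under 0.05. Every estimate plotted is below 0, and the *MOB1A* call is lost without a filter, after quantile normalization or rescaling, when NCa, NCb, siPrp19b or siPrp19c is left out, when the close pairs are averaged and in the 4 libraries.

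Ratios within a library do not depend on how libraries are scaled, and 4 pairs were compared with two-sided exact permutation tests, whose smallest p for 3 against 3 libraries is 0.1. The ratio of *STK4* to *STK3* was 6.28 ± 1.24 in NC and 5.48 ± 0.444 in siPrp19 (SD, n = 3 each; exact p = 0.4, adjusted over the 4 pairs 0.533). The ratio of *LATS2* to *LATS1* was 0.243 ± 0.0423 in NC and 0.267 ± 0.0308 in siPrp19 (exact p = 0.6, adjusted 0.6). *MOB1B* stood to *MOB1A* at 0.187 ± 0.00744 in NC and 0.206 ± 0.0235 in siPrp19 (exact p = 0.2, adjusted 0.4). In each pair the FPKM of 1 paralog was the higher in all 6 libraries, namely *STK4*, *LATS1* and *MOB1A*, and the size of a ratio, though not its change, rests on the exon lengths used. For each of these ratios the values of the NC and siPrp19 libraries overlapped. Because the smallest possible exact p is 0.1, no ratio could have passed the threshold. The tests therefore cannot decide whether the ratios differed between the groups.

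The kinase cascade acts on YAP and TAZ. *YAP1* fell by 1.21 on the log2 scale (adjusted p = 0.0018 by limma), and *WWTR1*, which encodes TAZ, fell by 0.55 (adjusted p = 0.0146 by limma). Both belong to a list of 10 effectors and outputs with 6 called lower, against 5.37% of all tested genes. Also called were *ANKRD1* (log2 fold change -0.84, adjusted p = 0.0151 by limma), *VGLL4* (-0.57, adjusted p = 0.0096 by limma) and *CCN2* (-0.55, adjusted p = 0.0200 by limma). *CCN1* was close to the threshold (-0.37, adjusted p = 0.0494 by limma) and was not called by voom. *ANKRD1* and *CCN2* had few reads, at 22 to 84 and 37 to 82 per library. The direction of this list is not independent evidence, because the study had singled out genes of it. The ratio of *LATS2* to *YAP1* was 0.0404, 0.0401 and 0.0327 in NCa, NCb and NCc and 0.153, 0.130 and 0.0933 in siPrp19a, siPrp19b and siPrp19c, without overlap (exact p = 0.1, the smallest possible, adjusted 0.4). This ratio largely restates the fall of *YAP1*, whose group means differed by -59.8%. The mean of *LATS2* was 31.3% higher in siPrp19, with groups that overlapped.

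Other genes of the pathway were taken from lists by role. Of 11 paralogs of the members, 10 were tested and 3 were called lower, against 5.37% of all tested genes. *FRMD6*, a FERM protein related to merlin, was at 20.4, 20.7 and 17.4 FPKM in NC and at 8.98, 8.87 and 9.18 FPKM in siPrp19 (log2 fold change -1.03, adjusted p = 0.0021 by limma). *WWC2*, the paralog of KIBRA, was at 10.6, 11.4 and 8.22 FPKM in NC and at 5.67, 5.50 and 5.22 FPKM in siPrp19 (log2 fold change -0.77, adjusted p = 0.0126 by limma). The group means of *FRMD6* and *WWC2* differed by -53.8% and -45.8%, a larger drop than that of any member. *STK38L*, which encodes the LATS-related kinase NDR2, was at 14.8, 15.3 and 13.1 FPKM in NC and at 11.0, 11.2 and 10.1 FPKM in siPrp19 (log2 fold change -0.39, adjusted p = 0.0341 by limma). It was not called with voom (adjusted p = 0.0527) or with averaged close pairs (adjusted p = 0.352 by limma). With averaged close pairs, *FRMD6* and *WWC2* were not called either (adjusted p = 0.104 and 0.169 by limma).

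Kinases and RASSF proteins that act on or beside MST1 and MST2 formed a list of 16, of which 13 were tested. By limma or by voom 0 were called, against 7.94% and 9.97% of all tested genes. At an unadjusted p under 0.05 there were 2 by limma and 4 by voom, against 23.6% and 26% of all tested genes. The largest fold change was that of *RASSF5*, which encodes an MST-binding protein (log2 fold change 0.31, adjusted p = 0.181 by limma). Among 18 subunits of the STRIPAK phosphatase complex and LIM proteins, which oppose the kinases, 17 were tested. Of these, 1 was called by limma and 2 by voom, against 7.94% and 9.97% of all tested genes. Voom added *STRIP2*, named here after its values were seen (log2 fold change 0.56, adjusted p = 0.0223 by voom). The limma call was *PPP2R1B*, a scaffold subunit of protein phosphatase 2A, which was at 4.75, 5.17 and 4.26 FPKM in NC and at 7.97, 7.31 and 7.40 FPKM in siPrp19 (log2 fold change 0.58, adjusted p = 0.0102 by limma).

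In the list of 18 polarity and junction genes, 13 were tested. *LLGL2* was called higher and *PALS1* lower, against 2.57% and 5.37% of all tested genes. *LLGL2*, a basolateral polarity gene, was at 1.12, 1.00 and 1.18 FPKM in NC and at 1.95, 2.39 and 2.04 FPKM in siPrp19 (log2 fold change 0.57, adjusted p = 0.0204 by limma). *PALS1*, an apical polarity gene, was at 4.52, 4.91 and 4.07 FPKM in NC and at 3.32, 3.14 and 3.12 FPKM in siPrp19 (log2 fold change -0.39, adjusted p = 0.0348 by limma). Of 10 genes that degrade or mark LATS, YAP or TAZ for degradation, 0 were called by limma or by voom, against 7.94% and 9.97% of all tested genes. At an unadjusted p under 0.05 there were 1 and 3, against 23.6% and 26%. The largest change was that of the ubiquitin ligase *ITCH* (log2 fold change -0.34, adjusted p = 0.111 by limma).

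Taken over the 6 lists by role, 83 genes were listed and 73 were tested. In the 6 libraries by column name, 10 were called lower and 2 higher, against 5.37% and 2.57% of all tested genes. Of the 10 called lower, 6 were effectors, from a list with genes that the study had singled out, 3 were paralogs and 1 was *PALS1*. In the 4 libraries 0 of the 73 passed by limma, against 0.0146% of all tested genes, with 14 at an unadjusted p under 0.05, against 12.3%. By voom 5 passed, against 1.92% of all tested genes, namely *FRMD6*, *PPP2R1B*, *LLGL2*, *YAP1* and *ANKRD1*. The count of 12 in the 6 libraries fell to 2 without NCa, 6 without NCb, 3 without siPrp19b and 3 without siPrp19c. With the close pairs averaged it was 0, with 13 at an unadjusted p under 0.05, against 2 and 1699 of the 13718 tested genes. The median log2 fold change was -0.13 for the paralogs, -0.06 for the upstream kinases and RASSF genes, 0.04 for the STRIPAK and LIM list, 0.00332 for the degradation list, -0.00239 for the polarity and junction list and -0.46 for the effectors.

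**Figure D4:**
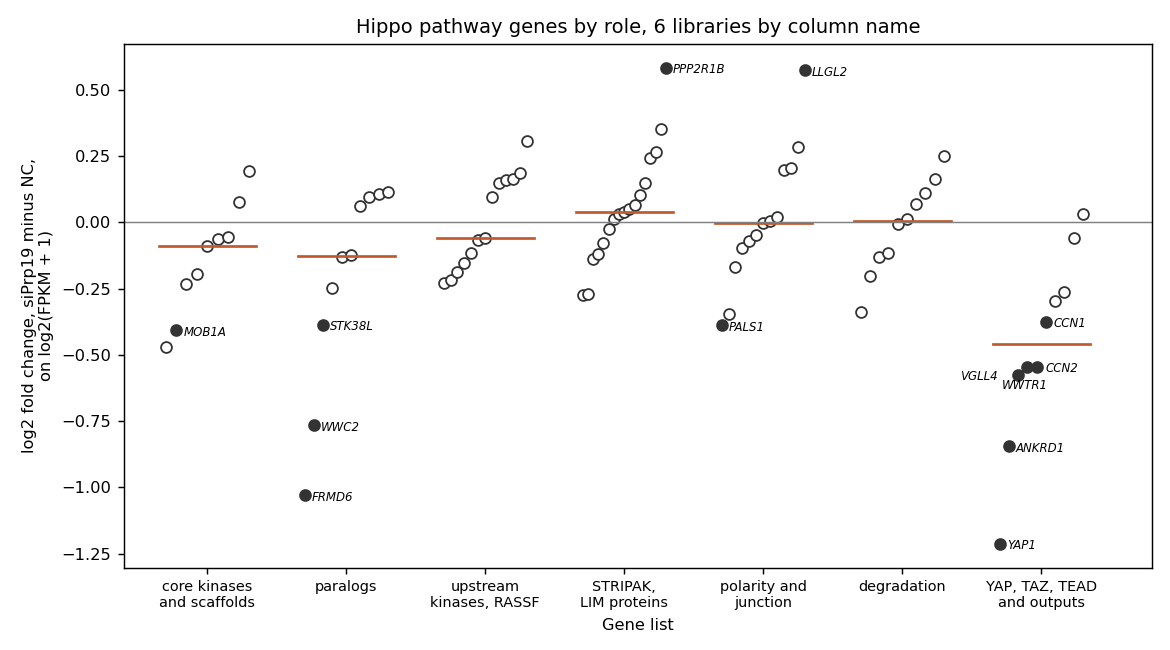
Log2 fold change, siPrp19 minus NC, on log2(FPKM + 1) for each tested gene of the members and of the 6 lists by role in the 6 libraries by column name, with an orange bar at the median of each list. Filled points were called at an adjusted p under 0.05 and are named, with *MOB1A* the 1 filled point among the members, 3 among the paralogs and 6 among the effectors.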

How the data were processed

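RNA-seq was available for 6 SK-N-AS libraries. The deposited values were FPKM per Ensembl gene, made by the authors from NEBNext Ultra libraries. The submitters' processing notes name HISAT2 2.0.5, featureCounts 1.5.0-p3 and hg38. The authors' own test, DESeq2 on counts, was not repeated. All 58735 identifiers were found in GENCODE 29, and symbols came from a name table (58207) or GENCODE (528). FPKM times merged exon length gave whole reads for 100% of values above 0 (tolerance 0.05 reads). Relative to the size that the FPKM scale implies, the recovered totals were 0.951 to 1.04, lower in siPrp19 than in NC, so the deposited FPKM carry a scaling between libraries.

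Values were analyzed as log2(FPKM + 1), which understates changes of weakly expressed genes. Genes averaging 1 FPKM or more were tested with limma 3.58.1 (R 4.3.3; mean-variance trend), with Benjamini-Hochberg adjustment over all tested genes and a threshold of 0.05. A gene was called when its adjusted p was under 0.05. Ratios were tested by two-sided exact permutation (scipy 1.17.1). Alternatives were a pseudocount of 0.1, no filter, quantile normalization, rescaling to the same sum, no trend, voom on recovered reads, the replicate block, averaged close pairs, and leaving out each library. Voom without the FPKM filter (at least 60 reads over 6 libraries) was added after seeing the data. The members and lists were chosen with earlier results of these data known. Named genes were *PRPF19*, all members, *YAP1*, *WWTR1*, *CCN2*, and per list up to 3 called genes with the largest absolute change, or the largest if none was called. Of the called effectors, *CCN1* alone fell outside this rule. A further adrenergic marker is not reported here, and the summed marker level leaves it out. In simulated libraries 200 genes were changed 3-fold at a dispersion of 0.01. The 6-library fit recovered 183 with 12 false calls over 13706 genes, and the 4-library fit 181 with 27 false calls over 13686 genes. The simulated libraries were independent, without close pairs, and the changes were larger than that of any member. The recovery therefore says nothing about the power for changes of the size seen here. Figures were drawn with matplotlib 3.10.9 in Python 3.11.15.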

Additional observations from a re-analysis of the deposited data

How the results depend on the processing

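Of 893 recomputed values, 760 were labelled the same as in the main setting. For the fold change of a gene this means the same direction and side of the threshold. For a count of called genes it means a similar size, and for a ratio the same direction only. In the 6 libraries by column name, 1089 genes were called, 512 without a filter on low values, 679 after rescaling to the same sum, 2 with the close pairs averaged and 253 to 1354 when 1 library was left out (253 without siPrp19c, 264 without NCa, 270 without siPrp19b, 335 without NCb). The share called higher was 32.4%, against 46.1% after quantile normalization and 55.1% of 1367 with voom. The count of called members was 0 without a filter (*MOB1A* adjusted p = 0.0824 by limma), with quantile normalization (0.0860), rescaling (0.123) or averaged close pairs (0.384), and 0 to 2 when 1 library was left out. In the 4 libraries, 2 genes were called, 0 without a filter, 264 with voom, 236 with voom without the filter and 0 to 70 when 1 library was left out (70 without siPrp19c). The causes were not tested. The replicate numbers were not taken as a pairing, since deviations from the group means correlated at 0.13, -0.05 and 0.20 between libraries of the same number. With the replicate block, 2 members and 928 genes were called, and by record 0 genes.

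Some small fold changes reversed by column name. *STK4* was at 0.0129 with voom, 0.0116 with voom without the filter and 0.0463 with averaged close pairs, and *NF2* at 0.0141 with voom and 0.0126 with voom without the filter. When 1 library was left out, *STK3* ranged from -0.0185 to 0.138 and *STK4* from -0.209 to 0.0305, and in the 4 libraries *STK3* from -0.0668 to 0.245 and *STK4* from -0.139 to 0.263. By record, *MOB1A* was at 0.00465 after quantile normalization, and leaving out 1 library gave -0.0612 to 0.0949 for *STK3*, -0.0376 to 0.121 for *LATS1*, -0.201 to 0.0767 for *MOB1A*, -0.202 to 0.0277 for *MOB1B* and -0.312 to 0.0613 for *AMOT*. The log2 ratio of *LATS2* to *LATS1* differed by 0.14 between the groups, and by -0.000119 to 0.25 when 1 library was left out. Among the members, depth limits *LATS2* (55 to 103 reads) most.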
